A study of Rattus norvegicus with 64 samples.

Results

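The genes described here mark monocytes, the circulating white cells that give rise to tissue macrophages, and the subsets into which monocytes are divided. The 9 genes were chosen by symbol: Csf1r and Cd68 for monocyte identity, Cd14, Ccr2 and Cd163 for classical monocytes, and Cx3cr1, Nr4a1, Spn and Itgax for non-classical monocytes. Of the 9, 8 were listed in all 64 files, among 26405 genes listed in any file and 17366 listed in every file, and Ccr2 was not analysed here. The identifiers were ENSRNOG00000018414 (Csf1r), ENSRNOG00000037563 (Cd68), ENSRNOG00000017819 (Cd14), ENSRNOG00000010253 (Cd163), ENSRNOG00000018509 (Cx3cr1), ENSRNOG00000007607 (Nr4a1), ENSRNOG00000036711 (Spn) and ENSRNOG00000036703 (Itgax). RNA-seq was run on whole blood drawn by cardiac puncture from male Sprague-Dawley rats aged 85 to 90 days. Each rat had received 4 injections at intervals of 2 h, and blood was taken 3 h after the final injection. The groups were saline at 22.5 C (6 rats), saline at 16 C (5 rats), saline at 39 C (16 rats with environmentally-induced hyperthermia, EIH), amphetamine (AMPH) at 16 C (15 normothermic rats) and AMPH at 22.5 C (22 hyperthermic rats, the neurotoxic exposure). The study was built to separate the effects of AMPH from those of a raised body temperature and of a cool environment. A whole blood library holds the RNA of all blood cells, so a level given here is a share of blood RNA and not a level within monocytes.

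Classical monocytes leave the bone marrow under the chemokine receptor Ccr2, carry the lipopolysaccharide co-receptor Cd14 at a high level and migrate to inflamed tissue. Non-classical monocytes carry the fractalkine receptor Cx3cr1, patrol the vessel wall and depend on the nuclear receptor Nr4a1 for their formation and survival. In the rat the surface protein CD43, the product of Spn, is used to separate the subsets, with high CD43 on the non-classical cells. Csf1r, the receptor of the growth factors Csf1 and Il34, is carried by both subsets.

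The promoter of Nr4a1 is shown because Nr4a1 is an immediate early gene whose level varied widely between EIH rats, and that of Cd68 because Cd68 was called in both comparisons with the AMPH 16 C group that used shared file codes. Both are from RefSeq, build GRCr8, and hold the 250 bases before the annotated start in the direction of the gene. Capitals in the Nr4a1 sequence, at chr7:134259888-134260137 on the plus strand, mark the letters CGTCA, the reverse complement of TGACG, which is the core of the cyclic AMP response element. Capitals in the Cd68 sequence, at chr10:54882442-54882691 on the minus strand, mark TTCCTC, the reverse complement of GAGGAA, the core bound by the myeloid factor PU.1.
Nr4a1: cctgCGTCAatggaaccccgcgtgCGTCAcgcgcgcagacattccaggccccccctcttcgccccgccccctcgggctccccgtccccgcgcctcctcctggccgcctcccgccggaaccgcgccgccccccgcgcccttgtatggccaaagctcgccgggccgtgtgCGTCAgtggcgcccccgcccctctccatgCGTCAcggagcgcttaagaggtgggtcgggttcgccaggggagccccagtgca
Cd68: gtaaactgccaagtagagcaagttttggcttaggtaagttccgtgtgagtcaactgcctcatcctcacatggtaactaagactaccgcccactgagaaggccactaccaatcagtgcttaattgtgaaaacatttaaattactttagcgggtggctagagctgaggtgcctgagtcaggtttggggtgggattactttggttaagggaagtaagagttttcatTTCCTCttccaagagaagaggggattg
The Nr4a1 promoter held 4 copies of the response element core, 246, 226, 82 and 53 bases before the start. On either strand, 18.2% of the 33469 promoters in the RefSeq table held at least 1 copy in the same window and 0.173% held 4 or more. The full response element, TGACGTCA, was found in 1.59% of promoters but not in that of Nr4a1. A PU.1 core was found in 23.3% of promoters, among them those of Csf1r (2 copies), Cd14 (2 copies) and Cd68 (1 copy, 27 bases before the start). Those of Cd163, Cx3cr1, Nr4a1 and Itgax held none. The heat shock element, searched as the triplets GAA, TTC and GAA with any 2 bases between neighbours, was found in 0.663% of promoters and in none of the 7 promoters of these genes that the table holds. A match of letters is a description of the sequence and not a bound site.

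Total counts per rat ranged from 19055615 to 40530319. Blood drawn through the heart can carry heart muscle RNA. Rats were left out above 5000 counts of the heart muscle gene Mb, and the remaining rats were 4 saline 22.5 C, 5 saline 16 C, 15 EIH, 13 AMPH 16 C and 22 AMPH 22.5 C rats. Deposited file names carry 14 codes whose meaning is not given in the sources used here. All 5 saline 16 C rats shared 1 code, which also held 1 EIH, 1 AMPH 16 C and 1 AMPH 22.5 C rat. The saline 22.5 C rats shared codes only with AMPH 22.5 C rats. Code and group thus overlap heavily in EIH against saline, in AMPH at 16 C against saline at 16 C and between the saline groups. Those comparisons were fitted without the code, and again in a single fit over all groups with the code as a term, which ties the groups together through the treated rats. In 9 of the 64 libraries the median Pearson r with all other libraries was under 0.9: EIH rats 7, 8 and 9, AMPH 16 C rat 12, saline 22.5 C rats 17, 18 and 20, and AMPH 22.5 C rats 17 and 21. Levels below are normalized counts, which are counts divided by a size factor per rat, and fold changes are from edgeR with p-values adjusted over all genes tested. Fewer cells of a type and less RNA per cell cannot be told apart in these data.

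Over 8 comparisons, 63 tests of these genes gave 11 calls at an adjusted p below 0.05. EIH against saline at 22.5 C gave 2 of 8 genes, Itgax higher and Spn lower, where 16.5% of all genes tested were called (7.12% higher and 9.39% lower). EIH against saline at 16 C gave Cd14 and Itgax, both higher, where 15% of all genes were called (8.41% higher and 6.58% lower). In AMPH at 22.5 C against AMPH at 16 C, Csf1r, Cd68, Cd14 and Nr4a1 were higher, 4 of 8 genes, where 15.9% of all genes were called (7.96% higher and 7.96% lower). In AMPH at 16 C against EIH, Csf1r, Cd68 and Cx3cr1 were lower, 3 of 8 genes, where 12.5% of all genes were called (5.59% higher and 6.92% lower). No gene of the set was called by edgeR in AMPH at 16 C against saline at 16 C. Of all genes 0.444% were called there (0.234% higher and 0.21% lower). An unadjusted p under 0.05 was found for 6 of 8 members and for 1927 of all 12396 genes tested. None was called in AMPH at 22.5 C against saline at 22.5 C (0% called). At an unadjusted p under 0.05 were 3 of 8 members and 1337 of 12853 genes. None was called in AMPH at 22.5 C against EIH (0.133% called, 0.116% higher and 0.0166% lower). At an unadjusted p under 0.05 were 2 of 8 members and 1596 of 12055 genes. The same held for saline at 16 C against saline at 22.5 C, where 0.00817% of all genes were called. At an unadjusted p under 0.05 were 0 of 7 members and 3195 of 12238 genes. DESeq2 called 1 gene of the set, Cd14, in AMPH at 16 C against saline at 16 C, where it called 411 of all 12396 genes. It called none of the set in the other 3 of these comparisons. Of all genes it called 201 of 12853 in AMPH at 22.5 C against saline at 22.5 C and 267 of 12055 against EIH. Between the saline groups it called 1359 of 12238. The comparisons share groups, so their values for a gene are set side by side below and are not independent of each other.

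**Figure D1:**
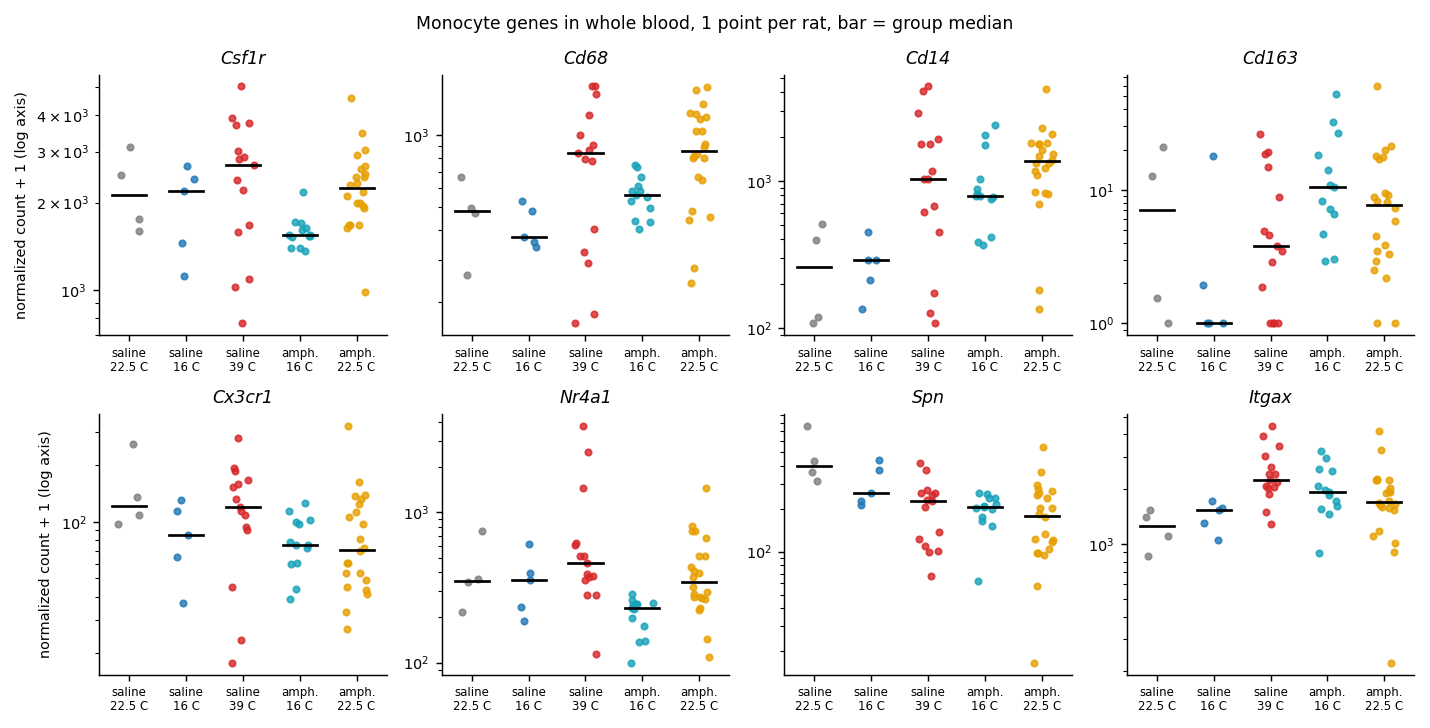
Normalized count plus 1 (vertical log axis) of the 8 genes in each of 59 rats by group, with 1 point per rat and a bar at the group median. Cd14 sits between 106 and 506 in the 4 saline 22.5 C rats and reaches 4382 in EIH, Csf1r is narrowest in AMPH at 16 C, and the group medians of Cd163 lie between 0 and 9.50.

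Csf1r and Cd68 stood lower in AMPH at 16 C than in the hyperthermic groups compared with it. Csf1r was 1590 to 3103 normalized counts in the 4 saline 22.5 C rats (median 2127) and 1114 to 2665 in the 5 saline 16 C rats (median 2187). It ran from 765 to 5037 in EIH (median 2695) and from 978 to 4592 in AMPH at 22.5 C (median 2242), but only from 1365 to 2170 in AMPH at 16 C (median 1544). The AMPH 16 C rats were thus the most alike, with a coefficient of variation of 12.9% against 31.2% to 47.4% in the other groups, and their values lay inside the range of each of the other groups except for saline at 22.5 C, whose lowest rat was above their median. Among rats of shared file codes, with the code in the model, Csf1r was 0.58 ± 0.14 log2 units higher (SE) in AMPH at 22.5 C than at 16 C (10 against 9 rats, adjusted p = 0.0108), and 7 of the 10 rats lay above all 9. It was lower in AMPH at 16 C than in EIH, with a log2 fold change of -0.87 ± 0.15 (10 against 7 rats, adjusted p = 0.00148), and 8 of the 10 AMPH rats lay below all 7. Between AMPH at 22.5 C and EIH the log2 fold change was -0.03 (95% interval -0.62 to 0.56, 10 against 13 rats, adjusted p = 0.972).

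Cd68 encodes a lysosomal glycoprotein of monocytes and macrophages. Its medians were 374 in saline at 16 C, 483 in saline at 22.5 C, 563 in AMPH at 16 C, 842 in EIH and 861 in AMPH at 22.5 C, and the ranges of neighbours in this order overlapped, with each gap of medians smaller than the larger SD of the pair. The EIH rats were the most spread, from 162 to 1598, and the 5 saline 16 C rats lay between 340 and 531. Cd68 was 0.73 ± 0.16 log2 units higher in AMPH at 22.5 C than at 16 C (adjusted p = 0.00682) and its log2 fold change in AMPH at 16 C against EIH was -0.82 ± 0.19 (adjusted p = 0.00887). Against saline at 16 C, EIH gave 0.98 ± 0.46 (adjusted p = 0.147) and AMPH at 16 C gave 0.43 ± 0.15 (adjusted p = 0.186). In the fit over all groups with the code, Cd68 was called in EIH against saline at 16 C, at 1.58 log2 units (adjusted p = 0.0428). In the code that holds all saline 16 C rats, the EIH rat had 1481 normalized counts of Cd68, the AMPH 22.5 C rat 1350 and the AMPH 16 C rat 735, all above the 5 saline rats.

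Both identity genes moved the same way within the codes, where each group had 1 to 4 rats, the same rats as in the fits above. Csf1r and Cd68 were higher in AMPH at 22.5 C than at 16 C within 5 of 5 shared codes, by 0.07 to 0.99 and by 0.49 to 0.89 in mean log2(normalized count + 1). Each was lower in AMPH at 16 C than in EIH within 5 of 5 codes, with differences from -1.29 to -0.48 for Csf1r and from -1.09 to -0.32 for Cd68. In a single fit over all groups with the code as a term, none of the 4 genes called in AMPH at 22.5 C against 16 C was called, with adjusted p = 0.0502 for Csf1r, 0.0623 for Cd68, 0.233 for Cd14 and 0.0672 for Nr4a1. Of all 14000 genes that fit called 1443 in this comparison. For AMPH at 16 C against EIH it called Csf1r and Cd163, and neither Cd68 nor Cx3cr1, beside 2006 of all 14000 genes.

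**Figure D2:**
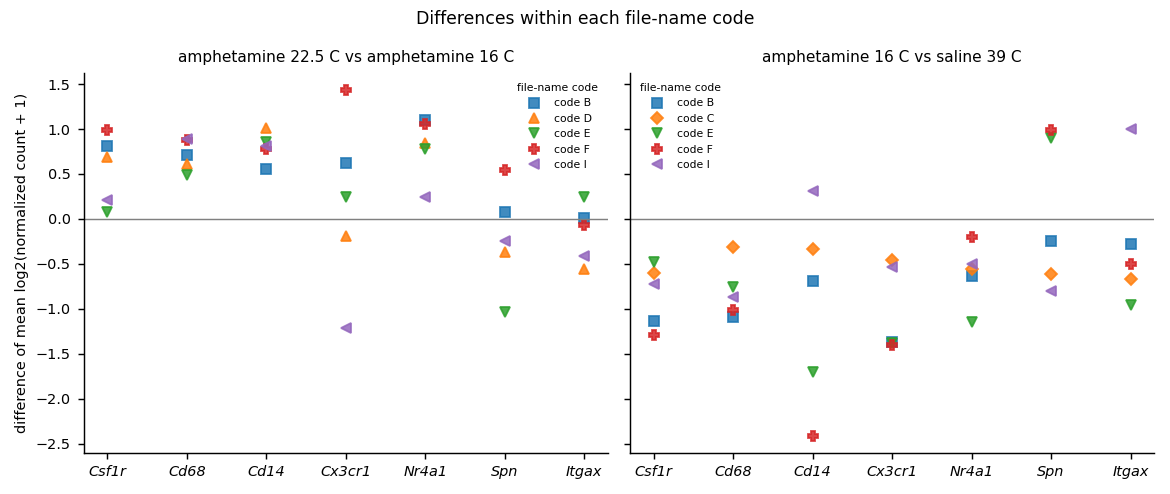
Difference of group means in log2(normalized count + 1) (vertical axis) within each shared file-name code, with 1 symbol per code, for 7 genes in AMPH at 22.5 C minus AMPH at 16 C (left) and AMPH at 16 C minus EIH (right). Csf1r, Cd68, Cd14 and Nr4a1 are above 0 in 5 of 5 codes on the left, and Csf1r, Cd68, Cx3cr1 and Nr4a1 are below 0 in 5 of 5 codes on the right.

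Cd14 was the gene of the set with the largest fold in the comparisons of EIH with the saline groups. The 4 saline 22.5 C rats had 118, 106, 396 and 506 normalized counts, and the 5 saline 16 C rats had 289, 290, 212, 446 and 134. EIH rats ranged from 106 to 4382 with a median of 1031, AMPH 16 C rats from 362 to 2391 with a median of 789, and AMPH 22.5 C rats from 133 to 4238 with a median of 1360. Of the 15 EIH rats 12 lay above all 5 saline 16 C rats and 2 lay below all of them, so the groups overlapped. The fold change of EIH over saline at 16 C was 2.41 ± 0.76 log2 units (adjusted p = 0.0349), and over saline at 22.5 C it was 2.34 ± 0.89 (adjusted p = 0.0706). In the fit over all groups these folds were 2.89 and 1.64 (adjusted p = 0.0121 and 0.204), and over saline at 22.5 C Cd14 was called by DESeq2 and by edgeR with every rat whatever its Mb count (adjusted p = 0.00706 and 0.0174). Leaving out any 1 saline 16 C rat gave a fold of 2.26 to 2.68 and ended the call, and with it that of Itgax, in each of the 5 fits.

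In AMPH at 16 C, Cd14 was 1.88 ± 0.44 log2 units above saline at 16 C (13 against 5 rats, adjusted p = 0.0562 by edgeR and 0.000297 by DESeq2), and 10 of 13 rats lay above all 5. In AMPH at 22.5 C against saline at 22.5 C the value was 2.03 ± 0.75 (8 against 4 rats, adjusted p = 0.431). With all 22 AMPH rats Cd14 was called, and 803 of all 13539 genes were. Cd14 was 0.76 ± 0.25 log2 units higher in AMPH at 22.5 C than at 16 C (adjusted p = 0.0474), within 5 of 5 codes, although only 2 of the 10 rats lay above all 9. The same rats without the code term gave 0.66 and every rat whatever its Mb count gave 0.84, neither of them called (adjusted p = 0.0613 and 0.0569). The difference between the drug effect at 22.5 C and that at 16 C, each against its own saline group, was -0.35 ± 1.06 log2 units (adjusted p = 0.961). No gene of the set was called in that contrast, where the SE ran from 0.41 (Itgax) to 1.7 (Cd163) log2 units. Of all 14000 genes 0 were called, with 1033 at an unadjusted p under 0.05. The EIH rat of the saline 16 C code had 4094 normalized counts of Cd14, against 1318 and 770 in its AMPH 22.5 C and AMPH 16 C rats and 134 to 446 in the 5 saline rats.

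Cd163, the haemoglobin-haptoglobin scavenger receptor of the classical group, was near the detection limit. It had 0 to 62 counts in the 59 rats and a median of 0 normalized counts in saline at 16 C, 2.80 in EIH, 6.07 in saline at 22.5 C, 6.73 in AMPH at 22.5 C and 9.50 in AMPH at 16 C. At this depth edgeR called no difference, with adjusted p-values from 0.162 to 0.878 over 7 comparisons, and Cd163 was not tested between the saline groups. In AMPH at 16 C against EIH, where the log2 fold change was 1.87 ± 0.82, it was called by DESeq2 and in the fit over all groups.

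**Figure D3:**
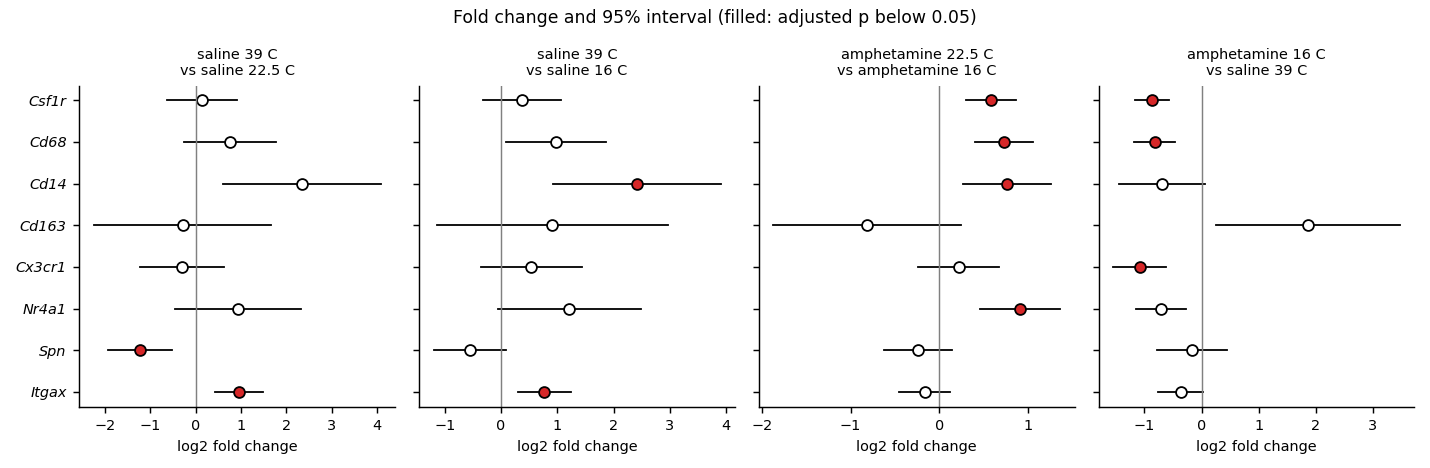
Log2 fold change (horizontal axis) and 95% interval from its SE for the 8 genes in 4 comparisons, with filled circles at an adjusted p below 0.05. Itgax is to the right of 0 in both EIH comparisons with saline, Csf1r, Cd68, Cd14 and Nr4a1 are to the right in AMPH at 22.5 C against 16 C, and Csf1r, Cd68 and Cx3cr1 are to the left in AMPH at 16 C against EIH.

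Among the non-classical genes, Cx3cr1 fell in 1 comparison and did not follow Cd14. Saline 22.5 C rats had 96.2 to 258 normalized counts (median 121), saline 16 C rats 36.0 to 130 (median 83.7), EIH rats 16.8 to 279 (median 118), AMPH 16 C rats 37.8 to 124 (median 74.5) and AMPH 22.5 C rats 26.0 to 324 (median 70.3). In order of median, neighbouring groups overlapped and differed by less than the larger SD of the pair. The log2 fold change in AMPH at 16 C against EIH was -1.09 ± 0.24 (adjusted p = 0.00696), and the 10 AMPH rats had a mean of 73.1 ± 24.5 (SD) against 160 ± 70.1 in the 7 EIH rats. It was lower within 5 of 5 codes, by differences of -1.40 to -0.46. For EIH the log2 fold change was 0.54 ± 0.45 against saline at 16 C and -0.31 ± 0.48 against saline at 22.5 C (adjusted p = 0.43 and 0.657). For AMPH against saline in the same environment it was -0.12 ± 0.27 at 16 C and -1.17 ± 0.44 at 22.5 C (adjusted p = 0.858 and 0.431).

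Nr4a1, the nuclear receptor required for non-classical monocytes and also an immediate early gene of many stimulated cells, spread furthest in EIH. Its saline values were 750, 341, 358 and 215 normalized counts at 22.5 C and 235, 187, 391, 354 and 611 at 16 C. AMPH 16 C rats lay between 99.0 and 284 (median 229), AMPH 22.5 C rats between 108 and 1446 (median 344) and EIH rats between 113 and 3770 (median 456). The 4 highest rats of all 59 were EIH rats 7, 9 and 11 (3770, 2500 and 1450) and AMPH 22.5 C rat 7 (1446), which carry the same file code. The other 2 EIH rats of that code, rats 6 and 8, had 604 and 389, inside the range of the 10 EIH rats outside it, which was 113 to 624. EIH rats 7, 8 and 9 are also among the libraries with a median r under 0.9. The fold of EIH over saline at 22.5 C was 0.93 ± 0.71 log2 units (adjusted p = 0.352), and -0.13 without the EIH rats of that code. Without those rats Cd14 was called and Spn was not against saline at 22.5 C, and Cd68 was called with Cd14 and Itgax against saline at 16 C. Nr4a1 was 0.91 ± 0.23 log2 units higher in AMPH at 22.5 C than at 16 C (adjusted p = 0.0128), where 8 of 10 rats lay above all 9 and 5 of 5 codes had the same direction. In AMPH at 16 C against EIH it was -0.71 ± 0.22 (adjusted p = 0.0502), below 0 in 5 of 5 codes, and against saline at 16 C it was -0.77 ± 0.23 (adjusted p = 0.124).

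The 2 other receptors of the family, Nr4a2 and Nr4a3, were present at low levels and were called with Nr4a1 in AMPH at 22.5 C against 16 C. Nr4a2 was higher by 1.54 ± 0.36 and Nr4a3 by 1.50 ± 0.33 log2 units (adjusted p = 0.00762 and 0.00542). Their medians were 17.3 and 31.9 normalized counts in AMPH at 22.5 C, 5.18 and 12.4 in AMPH at 16 C, and 11.7 and 42.0 in EIH. Nr4a3 was 3.31 ± 0.77 log2 units higher in EIH than in saline at 16 C and 3.28 ± 0.85 higher than in saline at 22.5 C (adjusted p = 0.00673 and 0.0166), and lower in AMPH at 16 C than in EIH, with a log2 fold change of -1.51 ± 0.31 (adjusted p = 0.00514).

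Spn had its highest median in saline at 22.5 C and a lower one in each of the other groups, EIH among them. The 4 saline 22.5 C rats had 761, 431, 357 and 313 normalized counts and the EIH rats 66.0 to 414 with a median of 225, and 13 of the 15 EIH rats lay below all 4. The log2 fold change was -1.23 ± 0.36 (adjusted p = 0.0281), and in the fit over all groups with the code it was -1.14 and not called (adjusted p = 0.157). Against saline at 16 C, where the rats had 258, 210, 375, 224 and 439, it was -0.56 ± 0.33 (adjusted p = 0.246). The Spn medians were 204 in AMPH at 16 C and 178 in AMPH at 22.5 C, both below that of EIH. AMPH against saline in the same environment gave Spn log2 fold changes of -1.28 at 22.5 C and -0.63 at 16 C (adjusted p = 0.477 and 0.184). Spn is also carried by T cells, and all 7 of 7 T cell genes measured (Cd3e, Cd3d, Cd3g, Cd2, Cd5, Lck and Cd247) were lower in EIH than in saline at 22.5 C, with a median log2 fold change of -1.53 against -0.01 over all genes. Their summed level ran from 8585 to 13188 in the 4 saline rats (median 9857) and from 1431 to 9120 in EIH (median 3347), and none of the 7 was at 0. NK cell genes moved with it too, with 3 of 4 lower, where 9.39% of all genes were called lower. The part of these cells in the result was not tested.

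Itgax, which encodes the integrin CD11c and is also carried by dendritic cells, was called higher in EIH than in both saline groups. Saline 22.5 C rats had 1413, 861, 1531 and 1109 normalized counts, saline 16 C rats 1533, 1583, 1310, 1054 and 1721, and EIH rats 1288 to 4453 with a median of 2254. Itgax medians were 1933 in AMPH at 16 C and 1699 in AMPH at 22.5 C. AMPH against saline in the same environment gave Itgax log2 fold changes of 0.48 at 16 C and 0.57 at 22.5 C (adjusted p = 0.291 and 0.621). Of the 15 EIH rats 13 lay above all 4 saline 22.5 C rats and 13 above all 5 saline 16 C rats. The folds of EIH over saline at 22.5 C and at 16 C were 0.95 ± 0.27 and 0.77 ± 0.24 log2 units (adjusted p = 0.0262 and 0.0338). In the fit over all groups with the code they were 1.33 and 0.73, and the call against saline at 16 C was lost (adjusted p = 0.0227 and 0.143). In AMPH at 22.5 C against EIH the log2 fold change of Itgax was -0.59 ± 0.21 (adjusted p = 0.229). In the fit over all groups Itgax was the 1 gene of the set called there, beside 380 of all 14000 genes. Of the 5 dendritic cell genes, Clec9a was higher in EIH than in either saline group and Flt3 was higher than in saline at 16 C. Xcr1 had a median of 14.9 in EIH, 37.5 in saline at 16 C and 13.1 in saline at 22.5 C, with log2 fold changes of -1.14 ± 0.44 and -0.02 ± 0.58 (adjusted p = 0.0806 and 0.979), and Zbtb46 had medians of 4.14, 4.00 and 9.61. The summed dendritic level was 63 to 114 in saline at 22.5 C, 60 to 122 in saline at 16 C and 101 to 305 in EIH. Of the platelet genes, 4 of 5 were higher in EIH than in saline at 22.5 C, against 7.12% of all genes. The part of these cells was not tested.

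Leaving out saline 22.5 C rat 17 ended both calls against that group, with Spn at -0.87 and Itgax at 1.04 log2 units (adjusted p = 0.191 and 0.0754). Leaving out rat 18 did so too, with Spn at -1.26 and Itgax at 0.81 (adjusted p = 0.0757 and 0.109). Both calls also ended without all libraries under the median r of 0.9, where Spn had a log2 fold change of -0.63 and Itgax of 0.84 (adjusted p = 0.488 and 0.322). Against saline at 16 C, leaving out EIH rats 7, 8 and 9 kept both calls, with Cd14 at 2.67 and Itgax at 0.75 log2 units (adjusted p = 0.00854 and 0.032). Without saline 22.5 C rat 21 Spn alone was called, and Itgax was 0.90 (adjusted p = 0.0823). Among all genes tested, 270 were called without rat 17 and 387 without rat 18, against 2145 with all 4 saline rats, and 14 without the libraries of low median r. Rat 17 had the highest Spn level of the 59 rats, at 761.

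The balance of the classical gene Cd14 to the non-classical gene Cx3cr1 was computed without size factors. It is given as the log2 ratio of their counts, each with 1 added, not corrected for gene length, so only its differences between groups can be read. Saline 22.5 C rats had -1.13, -0.33, 1.86 and 2.39 (median 0.77), and saline 16 C rats had 2.15, 2.98, 0.91, 2.40 and 0.04 (median 2.15). The ratio was 0.41 to 5.25 in EIH (median 2.91), 1.98 to 5.72 in AMPH at 16 C (median 3.54) and 0.02 to 6.53 in AMPH at 22.5 C (median 3.70). All 3 treated groups had higher medians than both saline groups, and every treated group overlapped each saline group. The medians of Cd14 and Cx3cr1 were 789 and 74.5 normalized counts in AMPH at 16 C, against 289 and 83.7 in saline at 16 C, and in EIH they were 1031 and 118.

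**Figure D4:**
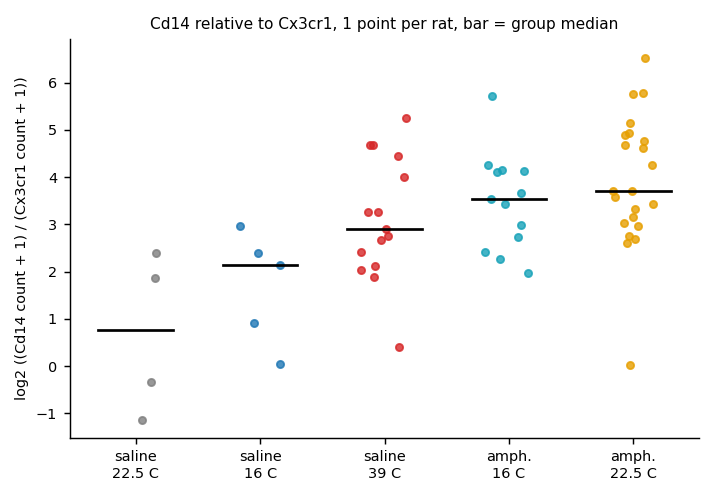
Log2 ratio of the Cd14 count plus 1 to the Cx3cr1 count plus 1 (vertical axis) in each of 59 rats by group, with 1 point per rat and a bar at the group median. Medians run from 0.77 in saline at 22.5 C to 3.70 in AMPH at 22.5 C, and the 13 AMPH 16 C rats lie between 1.98 and 5.72.

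Across the 59 rats, the gene most like Cd14 among 8016 genes with a mean of at least 100 was Vcan, which encodes the matrix proteoglycan versican and is a classical monocyte gene (Pearson r of log2 levels 0.947), followed by RGD1559482 (0.889) and Pld1 (0.88). Csf1r was closest to Plxnb2 (0.857) and Pld4 (0.854), and Cx3cr1 to Csf1r itself (0.707), Ptpre (0.671) and Mal (0.665). Nr4a1 was closest to the mitochondrial carrier Slc25a25 (0.837), Myo1g (0.76) and Piezo1 (0.725). Within the set, Cd14 and Cd68 had r = 0.79 and Csf1r and Cx3cr1 r = 0.707, while Cd14 and Cx3cr1 had r = 0.117 and Cd14 and Spn r = -0.505. The non-classical genes did not vary together as a set. Cx3cr1 and Spn had r = 0.619, and the other pairs among Cx3cr1, Nr4a1, Spn and Itgax had r from 0.003 to 0.2. Itgax had r = -0.134 with Csf1r, -0.08 with Cd68 and 0.065 with Cd14. These are descriptions over 59 rats that share groups and libraries.

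Other classical monocyte genes did not move as 1 block. In EIH against saline at 16 C, 1 of 13 was higher and 3 were lower, and of all genes 8.41% were higher and 6.58% lower. The median over the 13 was 0.13 and over all genes 0.07 log2 units. Vcan was higher by 2.36 ± 0.75 (adjusted p = 0.0377), whereas S100a8 and S100a9, which encode the subunits of the calcium-binding protein calprotectin, had log2 fold changes of -2.15 ± 0.34 and -1.62 ± 0.33 (adjusted p = 0.00032 and 0.00243). The third lower gene was Mgst1. Neutrophils also carry calprotectin, and the summed level of 8 neutrophil genes was 37627 to 62559 in saline at 16 C and 14671 to 71552 in EIH, with 1 of 7 tested genes (Camp) lower, and their part was not tested. Against saline at 22.5 C, 3 of 13 were higher in EIH (Vcan, F13a1 and Clec4e) and none was lower. There 7.12% of all genes were higher and 9.39% lower. S100a8, S100a9, Cd36 and Mgst1 were higher in AMPH at 16 C than in EIH, with S100a8 at 1.49 ± 0.30 log2 units (adjusted p = 0.00457), and Fcnb was lower. In that comparison 5.59% of all genes were higher and 6.92% lower. In AMPH at 22.5 C against 16 C, Vcan and Plac8 were higher, and the fatty acid transporter gene Cd36 was lower with a log2 fold change of -1.05 ± 0.17 (adjusted p = 0.00062). The share of all genes called there was 7.96% in each direction.

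Against saline at 16 C, Fn1 was the 1 of 13 classical genes called in AMPH at 16 C, higher by 1.13 ± 0.24 log2 units (adjusted p = 0.036). For AMPH at 16 C against saline at 16 C, the fit without the code called 55 of 12396 genes. With the code, the fit over all groups called 0 of 14000 there, so neither Fn1 nor Eno3. Of the other non-classical genes, 8 of 11 were tested, and the muscle enolase gene Eno3 was lower in 3 comparisons, with log2 fold changes of -1.08 in EIH against saline at 22.5 C, -0.86 in EIH against saline at 16 C and -0.99 in AMPH at 16 C against saline at 16 C (adjusted p = 0.016, 0.0203 and 0.0088). Pou2f2 was lower in AMPH at 16 C than in EIH and Cebpb was higher in EIH than in saline at 22.5 C. The median over the 8 was between -0.54 and 0.17 in these 4 comparisons.

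Of 7 transcription factors of the monocyte lineage, Spi1, Klf4, Zeb2 and Id3 were called in neither comparison of AMPH at 16 C with a hyperthermic group, where 15.9% and 12.5% of all genes were called. Irf8 and Cebpa, factors that act in myeloid differentiation, were higher in AMPH at 22.5 C than at 16 C, 2 of 7 factors with a median over the 7 of 0.10, by 0.65 ± 0.19 and 0.74 ± 0.22 log2 units (adjusted p = 0.0251 and 0.0298). Both and Irf5 were lower in AMPH at 16 C than in EIH, 3 of 7 with a median of -0.43, with Cebpa at -1.47 ± 0.20 and Irf8 at -0.99 ± 0.16 (adjusted p = 0.000278 and 0.000956). Cebpa had a median of 92.0 normalized counts in AMPH at 16 C, 97.0 in saline at 16 C, 60.3 in saline at 22.5 C, 158 in AMPH at 22.5 C and 203 in EIH. In EIH against saline at 16 C, Irf8 and Zeb2 were higher and Id3, a repressor of helix-loop-helix factors, was lower, and against saline at 22.5 C Cebpa and Zeb2 were higher and Id3 was lower.

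The growth factor Csf1, the ligand of Csf1r, was higher in AMPH at 16 C than in saline at 16 C by 1.31 ± 0.25 log2 units (adjusted p = 0.0214). That call was absent from the fit over all groups with the code, which called 0 of 14000 genes there. Csf1 was also higher in EIH than in saline at 22.5 C by 2.52 ± 0.78 (adjusted p = 0.0342). Its medians were 315 normalized counts in saline at 22.5 C, 838 in saline at 16 C, 1613 in EIH, 2338 in AMPH at 16 C and 2132 in AMPH at 22.5 C. AMPH 16 C rats thus had Csf1 at 1215 to 4065, against 722 to 1531 in saline at 16 C, beside a Csf1r log2 fold change of -0.32 ± 0.16 (adjusted p = 0.329). Il34, the other ligand of Csf1r, and Cx3cl1, the ligand of Cx3cr1, had too few counts to be tested in any comparison. The monocyte chemokine Ccl2 was 2.99 ± 1.06 log2 units above saline at 16 C in EIH (adjusted p = 0.0587) and was not called in any comparison.

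Of 12 genes shared by all monocytes, Cst3 and Csf2rb were higher in EIH than in saline at 22.5 C (7.12% of all genes higher). Aif1 was lower in EIH than in saline at 16 C (6.58% of all genes lower). In AMPH at 22.5 C against 16 C, Aif1 and Fcer1g were lower and 0 of the 12 were higher (7.96% of all genes each way). The median over the 12 was -0.03 log2 units there, against 0.01 over all genes. Fcer1g was higher in AMPH at 16 C than in EIH. Beside the calls in AMPH at 22.5 C against 16 C, 1 of 5 platelet genes (Ppbp) was higher, and 1 of 4 NK genes (Ncr1), Cxcr2 of the neutrophil genes and Xcr1 of the dendritic genes were lower. Of 5 erythroid entries (4 genes, with Hbb under 2 identifiers) 2 were also lower there, Hba-a2 and Slc4a1. Their log2 fold changes were -1.49 ± 0.37 and -0.74 ± 0.24 (adjusted p = 0.0111 and 0.0447). Hba-a2 is a globin transcript, and globin transcripts had been depleted from the RNA before sequencing. In AMPH at 16 C against EIH, where Csf1r and Cd68 were lower, the tissue macrophage gene Mrc1 and the NK gene Ncr1 were higher and the B cell gene Cd22 was lower. Mrc1 was also higher in EIH than in saline at 22.5 C and at 16 C, by 1.52 ± 0.43 and 1.26 ± 0.39 log2 units (adjusted p = 0.0235 and 0.0319). Beside the calls in EIH against saline at 16 C, Ppbp was higher, and Cd2 of the T cell genes and Ncr1 and Nkg7 of the NK genes were lower. The summed level of 5 tissue macrophage genes was 68.7 to 430 in EIH and 108 to 551 in AMPH at 16 C. The part of these cells in the results was not tested.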

How the data were processed

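The authors aligned reads to the rat transcriptome with Bowtie 0.12.9 and quantified them with RSEM 1.2.0 after CASAVA 1.8.2, per the labels, against build rn5, and deposited unnormalized expected counts per gene and rat. RNA had been depleted of globin transcripts, which could also remove other RNA. Expected counts were rounded to whole numbers here. Files carry 6 gene lists, and a gene was tested where all files of a comparison list it. Of the 64 rats, 5 exceeded 5000 counts of Mb and were not used. Within each group the pairs of libraries differed by far more than sampling noise, with a lowest chi-square per gene of 56.2.

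Each comparison was fitted with edgeR 4.0.16 in R 4.3.3 (TMM, quasi-likelihood test, genes with at least 10 counts in as many rats as the smaller group, Benjamini-Hochberg adjustment over all genes, threshold 0.05). AMPH at 22.5 C against EIH, AMPH at 22.5 C against 16 C and AMPH at 16 C against EIH used the rats of file-name codes that hold both groups, with the code as a term. AMPH at 22.5 C against its saline group used the 8 AMPH rats whose IDs have the form of the controls' IDs. SE is the size of the log2 fold change over the root of F, and 95% intervals are normal approximations from it. Levels were normalized with DESeq2 1.42.0 size factors, and DESeq2's Wald test was an alternative. Tables and figures used Python 3.11.15, numpy 2.4.6, scipy 1.17.1, pandas 2.3.3 and matplotlib 3.10.9. Differences within codes use log2(normalized count + 1). The fits were also run on simulated data with known changes. Those data held no code effect and no libraries of low median r, so they do not bear on either.

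The members and lists were chosen with earlier results of these data known. The genes named are the members, from each other list up to 4 genes called in the most comparisons, all called partners of a member, and the 3 genes of highest Pearson r with Cd14, Cx3cr1, Nr4a1 and Csf1r. Of these, 1 gene like Csf1r is not reported here, nor is 1 transcription factor, which was left out of its list's counts. Other genes of a list are named where the count is 5 or fewer, chosen after their values were seen, as are the ligands Il34, Cx3cl1 and Ccl2. Alternatives changed the normalization, the test, the filter, the Mb rule, the rats and the code term. Added after seeing the data were fits without libraries that stand apart, fits without 1 code's EIH rats, AMPH against saline within 1 code, the contrast of drug effects and the rats of the replicate block fitted without it.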

Additional observations from a re-analysis of the deposited data

Results flagged for a closer look

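In saline at 16 C, Cd163 had 16.9 normalized counts in rat 1 and 0 to 0.94 in the other 4 rats, a gap of 0.944 of the group's range. This was the 1 value so far from its group among the 16 sets of 4 or 5 rats examined, and chance gives such a value in about 1 in 20 sets. Cd163 was not called between any groups in the comparisons with saline at 16 C.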

How the results depend on the processing

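Of 805 single-gene values under another setting, 42 lost a call, 14 gained one and 45 changed sign, and none of the 45 had been called. In the number of the 8 genes called, DESeq2 size factors, the absence of the count filter and setting genes missing from a list to 0 made no change of more than 1.5 times, whereas other settings did. EIH against saline at 22.5 C gave 1 gene (Itgax) in the fit over all groups with the file code, which called 402 of all 14000. It gave 3 (Cd14 added) with DESeq2 (3365 of all 12986) and with every rat whatever its Mb count (4351 of all 12811). Without the libraries that stand apart it gave 0 (14 of all 13287), and 0 to 2 with each saline rat left out (270 to 1979 of all genes). EIH against saline at 16 C gave 2 in the fit over all groups (1228 of all 14000), but with Cd68 in place of Itgax. With every rat whatever its Mb count it gave 1 (Cd14, beside 1722 of all 12568), and 0 with any saline rat left out (1026 to 1210 of all genes). AMPH at 16 C against saline at 16 C gave 1 (Cd14) with DESeq2 (411 of all 12396). AMPH at 22.5 C against saline at 22.5 C gave 1 (Cd14) with all AMPH rats (803 of all 13539). AMPH at 22.5 C against EIH gave 1 (Itgax) in the fit over all groups (380 of all 14000). AMPH at 22.5 C against 16 C gave 0 in that fit (1443 of all 14000). AMPH at 16 C against EIH gave 5 with DESeq2 (Nr4a1 and Cd163 added, beside 2140 of all 12096). The cause was not tested. In saline at 16 C against saline at 22.5 C, 1 gene of all tested was called and 2095 without saline 22.5 C rat 19, none of them a member. Depth limits Cd163, whose counts were 62 at most, and Il34 and Cx3cl1, which were too low to test, and Cx3cr1 fell to 8 counts in 1 EIH rat.

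Log2 fold changes that turned, none called in either setting, were as follows. In EIH against saline at 22.5 C the fit over all groups gave -0.18 for Csf1r and -0.57 for Nr4a1, leaving out libraries that stand apart gave 0.46 for Cx3cr1, and leaving out the EIH rats of the shared code gave -0.13 for Nr4a1. With each saline rat left out the ranges were -0.72 to 0.73 for Cd163 and -0.48 to 0.10 for Cx3cr1. In AMPH at 16 C against saline at 16 C, Cx3cr1 was 0.066 in the fit over all groups and -0.32 to 0.075 with each saline rat left out. Between the saline groups Nr4a1 was 0.30 without libraries that stand apart, and with each rat left out the ranges were -0.29 to 0.0096 for Csf1r, -0.36 to 0.091 for Cd68, -0.30 to 0.42 for Cd14 and -0.47 to 0.23 for Nr4a1. In AMPH at 22.5 C against saline at 22.5 C, Cd163 was 0.14 in the fit over all groups, all AMPH rats gave 0.059 for Csf1r, 0.26 for Cd163 and 0.096 for Nr4a1, and Nr4a1 was 0.11 without libraries that stand apart. With each control, AMPH rat 17 or AMPH rat 21 left out, the ranges were -0.28 to 0.052 for Csf1r, -0.86 to 0.58 for Cd163 and -0.54 to 0.11 for Nr4a1. In AMPH at 22.5 C against EIH, Spn was -0.11 in the fit over all groups, -0.065 without the code term, -0.11 with all rats and no code term, -0.091 without libraries that stand apart and -0.24 without the EIH rats of the shared code. Nr4a1 was -0.74 without the code term and -0.92 with all rats, Cd14 was -0.041 with all rats and -0.051 without the EIH rats of the shared code, and Cd68 was -0.14 without them.

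The labels give the groups replicate numbers, but in none of 6 comparisons did every pair of rats with the same number correlate above 0.1, and the mean correlation was -0.062 to 0.195. The highest mean was in AMPH at 22.5 C against saline at 22.5 C, where the 4 pairs ran from 0.00036 to 0.506, against a mean of -0.064 for different numbers. With the replicate number as a block, EIH against saline at 16 C gave 0 genes of the set and 951 of all 11828. AMPH at 22.5 C against 16 C gave 2 of the set (Cd14 and Nr4a1) and 297 of all 12112. AMPH at 16 C against EIH gave 1 of the set (Cx3cr1) and 263 of all 11890. The same rats without the block gave 1 (Cd14), 3 and 1 (Csf1r) of the set, and 1368, 1512 and 686 of all genes. The block turned Csf1r to 0.013 and Itgax to -0.36 in AMPH at 22.5 C against saline at 22.5 C, Csf1r to 0.28, Cx3cr1 to 0.090 and Nr4a1 to -0.23 in AMPH at 22.5 C against EIH, Cd163 to 0.16 in AMPH at 22.5 C against 16 C and Spn to 0.13 in AMPH at 16 C against EIH. The same rats without the block gave -0.00048 for Itgax in AMPH at 22.5 C against saline, and 0.014 for Csf1r, -0.84 for Nr4a1 and -0.053 for Spn against EIH. No paired analysis was possible for the 2 comparisons of saline at 22.5 C with EIH and with saline at 16 C because those groups share no replicate numbers.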
